A study of Mus musculus with 12 samples.

Results

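The genes described here encode UDP-glucuronosyltransferases (UGTs), glutathione transferases (GSTs) and microsomal glutathione transferases (MGSTs). They were chosen by symbol: every gene of the Ugt1a, Ugt2a, Ugt2b and Ugt3a series, of the Gst classes alpha, kappa, mu, omega, pi, theta and zeta, and of the Mgst series, pseudogenes left out, with at least 10 counts in at least 3 of 12 libraries. Of 46983 genes in the files, 46 had such a symbol and 39 met the count minimum. The 39 members are 17 UGT, 20 GST and 2 MGST genes. Under the minimum were Ugt1a8, Ugt1a10, Ugt2a1, Ugt2a2, Gsto2, Gstt4 and Mgst2, none of which reached 50 counts over all libraries. Ugt2a1 and Ugt2a2 had 0 counts throughout.

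UGTs sit in the membrane of the endoplasmic reticulum and transfer glucuronic acid from UDP-glucuronate onto bilirubin, bile acids, steroids and drugs. GSTs, most of them soluble, join glutathione to electrophiles such as epoxides, quinones and products of lipid peroxidation, and MGSTs are unrelated membrane proteins with the same kind of activity. In liver these enzymes form part of the conjugation step of detoxification. Their genes are known targets of sensors of foreign and oxidant compounds, among them NRF2, CAR, PXR, the aryl hydrocarbon receptor (AHR) and the fatty acid receptor PPAR-alpha.

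RNA was measured in primary mouse hepatocytes in 4 groups of 3 libraries. AEG-1-L24K/L25H hepatocytes carry 2 changed leucines (L24K and L25H) in AEG-1, the protein encoded by Mtdh, in a motif through which AEG-1 is known to bind retinoid X receptors, the partners of PPAR-alpha. They are called the knock-in here. Their AEG-1-WT counterparts are called wild type. Each genotype was either given CP775146, an agonist of PPAR-alpha, at 2.5 µM for 24 h (treated) or left untreated. The groups are thus treated knock-in, untreated knock-in, treated wild type and untreated wild type. All mice were on a C57BL/6/J background, the change was made with CRISPR/Cas9 in the whole animal, and both genotypes were littermates from crosses of heterozygotes. The labels give neither sex nor age for these hepatocytes. Nor do they say if a group's 3 libraries stem from different animals or cultures, so the p-values measure the spread between these libraries, which may be technical. The genotype and the mice or cell preparations that carry it cannot be told apart, and CP775146 cannot be told apart from a vehicle, since none is named for the untreated cultures.

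Total counts ran from 26956032 to 34885451 per library, of which the members took 0.746% to 0.849%. Levels are CPM (counts per 1e6 counts) on TMM-scaled library sizes, and levels of different genes are compared per kilobase of exon. Fold changes are log2 values with their standard error. Tests were edgeR's quasi-likelihood F tests, p-values were adjusted by Benjamini and Hochberg over 15664 tested genes, and a change was called below 0.05. Mtdh, the edited gene, averaged 192, 173, 181 and 166 CPM in treated knock-in, untreated knock-in, treated wild type and untreated wild type (0.06 ± 0.04 log2 between untreated genotypes, not called), and a gene count cannot show the 2 changes. The cells expressed hepatocyte markers (9 of 10 listed were found, all with counts), whose CPM summed to 79790 to 82150 in treated knock-in, 86430 to 91040 in untreated knock-in, 121400 to 127500 in treated wild type and 119600 to 122000 in untreated wild type. Alb made up 78.7% to 87.4% of this sum, and the other 8 summed to 15260 to 15740, 18380 to 18620, 15870 to 16050 and 18130 to 19060 CPM in the same order of groups. Of the 9, 2 rose and 6 fell in treated knock-in against treated wild type, and 1 (Apob) rose and 4 fell in untreated knock-in against untreated wild type (medians -0.35 and -0.11 log2). Sums over 9 cholangiocyte markers were 66.8 to 71.2, 66.6 to 69.7, 48.7 to 49.8 and 34.5 to 38.7 CPM, and of 7 tested 4 rose between treated and 6 between untreated genotypes, with no fall. Sums over 9 stellate cell markers were 67.9 to 78.5, 108.5 to 122.4, 160.2 to 197.9 and 188.3 to 220.2 CPM, of which Reln made up 91.7% to 96.0%, and of 7 tested 3 fell and none rose in each genotype comparison. Sums over 9 macrophage markers were 107.2 to 121.5, 152.7 to 161.8, 185.3 to 189.5 and 212.6 to 252.9 CPM, of which Cd68 made up 96.0% to 98.5%. Without Cd68, which fell in the knock-in, the macrophage sums were 3.98 to 4.28, 5.71 to 6.17, 2.92 to 3.74 and 4.22 to 4.85 CPM, higher in the knock-in within each treatment, and of 7 tested 3 rose between treated and 2 between untreated genotypes. Sums over 9 endothelial markers were 49.3 to 54.7, 61.7 to 67.8, 78.6 to 80.0 and 91.1 to 101.9 CPM, and without Stab2 their ranges overlapped between genotypes within each treatment. No listed marker of these cell types was at 0 in all libraries. In such bulk RNA, fewer cells of a type and less RNA per cell cannot be told apart. In each of the 12 libraries 2 transcripts of X inactivation summed to 1486 to 2394 CPM and 4 Y-linked genes to 0.0852 to 0.263 CPM.

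In untreated knock-in against untreated wild type, 28 of 39 members were called (12 up, 16 down), 71.8% against 37.0% of all tested genes (18.4% up, 18.6% down). By family, 10 of 17 UGT genes fell and none rose, 10 of 20 GST genes rose and 6 fell, and both MGST genes rose. In treated knock-in against treated wild type, 30 of 39 were called (13 up, 17 down), 76.9% against 42.5% of all genes (20.5% up, 22.0% down), with 12 UGT genes down and 2 up, and 10 GST genes up and 5 down. The hepatocyte marker sums, mostly Alb, were lower in the knock-in in both of these comparisons, and the part of the marker changes given above in these counts was not tested. With CP775146, 21 members were called in the knock-in (15 up, 6 down), 53.8% against 37.2% of all genes (18.1% up, 19.1% down). In wild type 24 were called (14 up, 10 down), 61.5% against 45.0% (22.7% up, 22.3% down). With CP775146, 1 of 9 hepatocyte markers rose and 6 fell in the knock-in, and 2 rose and 4 fell in wild type. Of 7 macrophage markers 4 fell in the knock-in and 1 in wild type. Of 7 cholangiocyte markers 2 rose and 3 fell in the knock-in, and 3 rose and 3 fell in wild type. Of 8 endothelial markers 1 fell in the knock-in and 3 in wild type. Of 7 stellate cell markers 2 fell in the knock-in and none in wild type. The part of these marker changes in the member counts was not tested. A response to CP775146 that differed between genotypes was called for 12 members, 30.8% against 7.11% of all genes (8 up, against 2.78%, and 4 down, against 4.33%).

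Most of these changes were small. The median member change between untreated genotypes was -0.09 log2, against -0.004 over all genes, and the median absolute change was 0.32 log2, against 0.17. Between treated genotypes the median absolute change was 0.396 log2, against 0.194. With CP775146 it was near that of all genes, 0.163 against 0.168 in the knock-in and 0.225 against 0.212 in wild type. The part of the members' expression levels in their higher called shares was not tested. Changes of at least 2-fold numbered 3 members between untreated genotypes (2 up and 1 down; 4.81% of all genes), 3 between treated genotypes (2 up and 1 down; 5.82%), 2 for CP775146 in the knock-in (4.16%) and 1 in wild type (6.48%). Scaling by total counts alone moved the median change of all tested genes to 0.10 log2 between untreated genotypes, 0.12 between treated genotypes, -0.07 for CP775146 in the knock-in and -0.10 in wild type, and shifted the splits. It gave 15 up and 12 down between untreated genotypes, 18 up and 11 down between treated genotypes, 11 up and 10 down for CP775146 in the knock-in and 12 up and 18 down in wild type. The shares of all tested genes called up and down with this scaling were not computed, so its counts cannot be set against them. Between treated genotypes total counts gave 7 UGT genes down and 2 up, and 14 GST genes up and 4 down. Between untreated genotypes they gave 6 UGT genes down and 2 up, and 11 GST genes up and 6 down. No called member value changed its sign under any of the alternatives run.

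**Figure D1:**
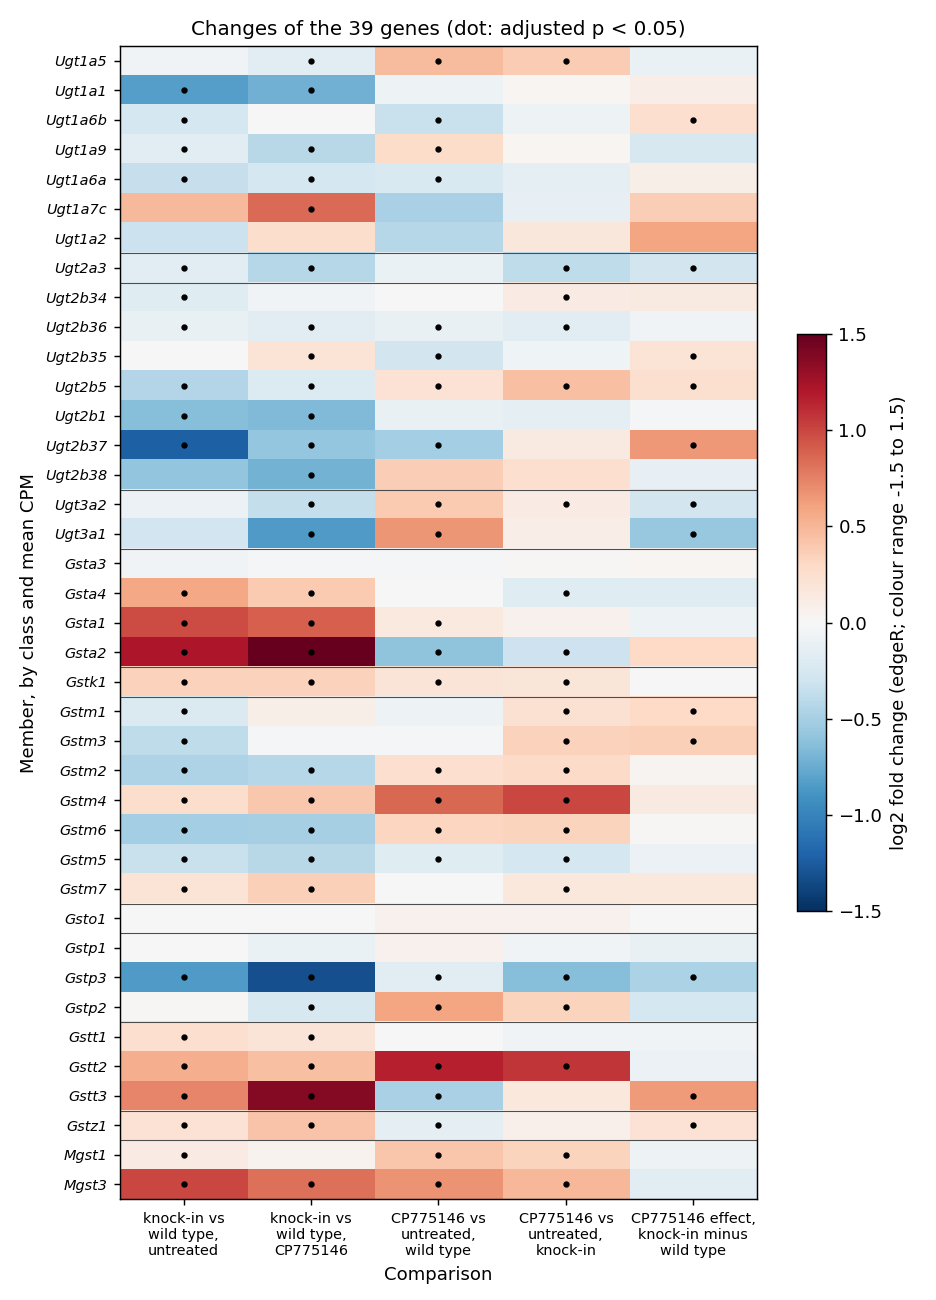
Log2 fold change of each of the 39 members (rows, by class and then by mean CPM) in 5 comparisons (columns), with red for higher and blue for lower in the first-named group and a dot for a call at an adjusted p below 0.05. The first 2 columns show blue across most UGT rows and red across most alpha, kappa, theta and zeta GST rows, and the last column, the difference in response, holds 12 dots.

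The 2 genotype comparisons share no library, and neither do the 2 comparisons of CP775146. Of the 39 members, 11 were higher and 12 lower in the knock-in under both conditions, against 13.1% and 13.5% of all tested genes, and none was called in opposite directions, against 0.562%. CP775146 raised 11 members and lowered 4 in both genotypes, against 14.2% and 14.0% of all tested genes, and again none was called in opposite directions, against 0.268%.

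Mu-class GST genes dominated the pool. Per kilobase of exon that no other gene shares, Gstm1 (1401 CPM per kilobase) and Gstm3 (801) led, followed by Mgst1 (443), Gstp1 (334), Ugt2b36 (196), Ugt2b5 (151), Ugt2b34 (150) and Ugt1a1 (148). The place of Ugt1a1 rests on a short unshared stretch of 385 bases, and with its full exonic length it ranked 22nd. Over the libraries, mu-class genes took 41.2% to 48.6% of member CPM, Ugt2b genes 19.7% to 22.9%, the Mgst genes 9.16% to 13.4% and alpha-class genes 7.72% to 10.8%. The Mgst share was 12.8% to 13.4% in treated knock-in, 11.3% to 11.8% in untreated knock-in, 12.3% to 12.5% in treated wild type and 9.16% to 9.81% in untreated wild type. Of 39 members, 12 averaged at least 100 CPM and 33 at least 10 CPM. Replicates lay close together, with a median coefficient of variation over members of 2.92%, 2.59%, 4.39% and 5.19% in treated knock-in, untreated knock-in, treated wild type and untreated wild type.

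**Figure D2:**
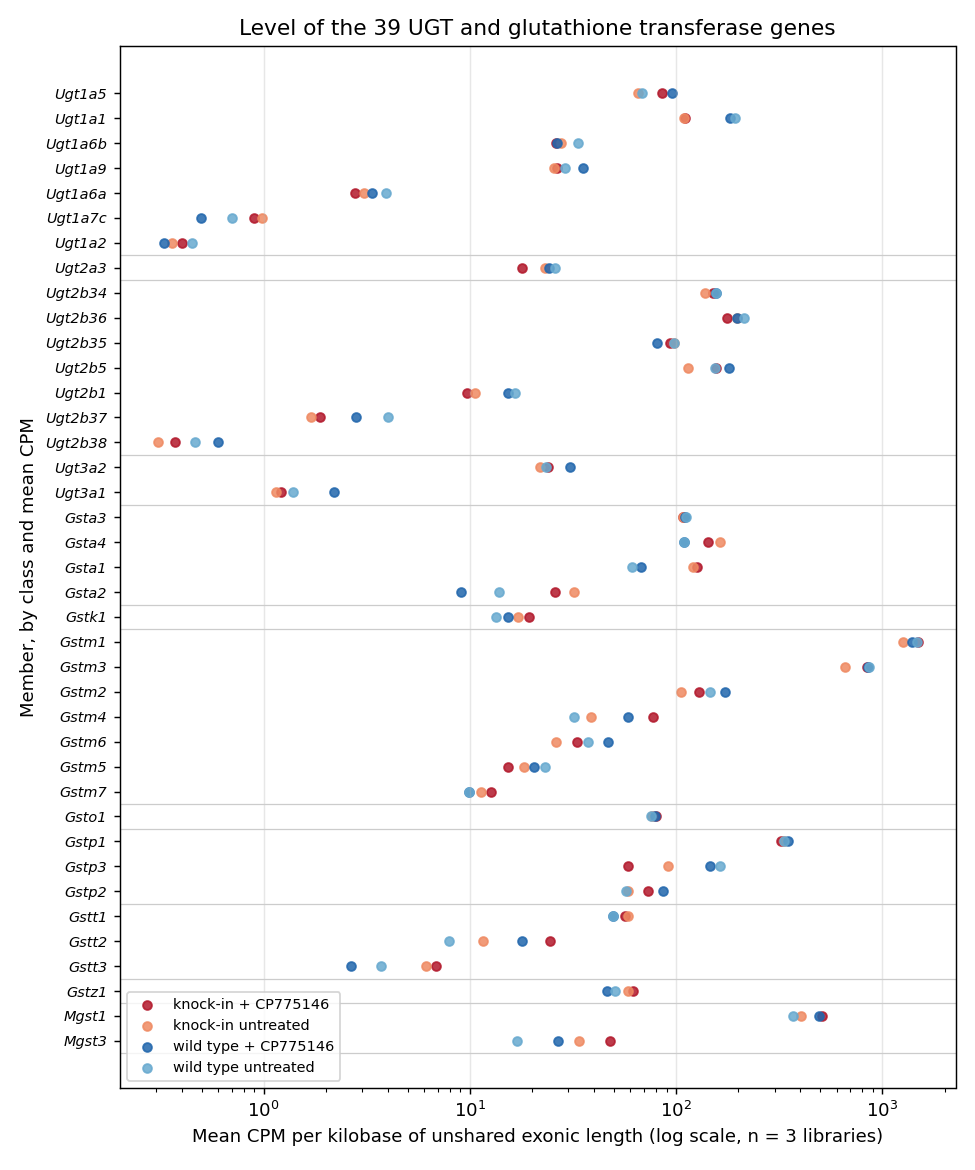
Mean CPM per kilobase of unshared exonic length (log axis, n = 3 libraries a group) for each member, ordered by class and mean CPM, with 1 point a group. Gstm1 and Gstm3 lie farthest right, and Ugt1a2, Ugt2b38 and Ugt1a7c farthest left.

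In the Ugt1a class the largest change between untreated genotypes was in Ugt1a1 and the largest called treatment change in Ugt1a5. The 7 members start at separate first exons along chromosome 1 (88070800 to 88220002, plus strand, GRCm38) and are spliced to common exons. Of their exonic length 50.3% to 82.7% is shared, in the common exons or elsewhere, with other annotated genes, among them Gm20528. Their counts come from the unshared rest. Ugt1a1, which encodes the enzyme that conjugates bilirubin (ENSMUSG00000089960, chromosome 1, 88211959 to 88218997, plus strand), had 42.7, 42.9 and 42.1 CPM in treated knock-in, 40.5, 42.4 and 42.4 CPM in untreated knock-in, 69.9, 68.7 and 72.1 CPM in treated wild type, and 76.6, 80.9 and 64.6 CPM in untreated wild type. The 6 knock-in libraries lay below the 6 wild-type libraries, while treated and untreated cultures of a genotype overlapped. The knock-in effect was -0.82 ± 0.06 log2 without treatment (edgeR adjusted p = 5.05e-12) and -0.72 ± 0.06 with it (5.14e-11).

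Ugt1a5, the member of the class with the most CPM, rose with CP775146. It had 73.4, 76.1 and 78.3 CPM in treated knock-in, 59.8, 58.2 and 57.7 CPM in untreated knock-in, 86.0, 82.9 and 85.1 CPM in treated wild type, and 65.1, 58.7 and 58.7 CPM in untreated wild type. Treated libraries were above untreated ones in both genotypes, by 0.38 ± 0.04 log2 in the knock-in (edgeR adjusted p = 4.59e-08) and 0.48 ± 0.04 in wild type (3.67e-10). Between untreated genotypes its libraries overlapped (-0.05 ± 0.05 log2, not called). The fall between treated genotypes (-0.16 ± 0.04 log2) was lost with total-count scaling, at -0.02. Per unshared kilobase, Ugt1a1 made up 42.8% to 44.3% of the Ugt1a pool in treated knock-in, 45.8% to 47.3% in untreated knock-in, 52.4% to 53.6% in treated wild type and 54.8% to 61.9% in untreated wild type. Ugt1a5 made up 32.9% to 34.4%, 27.7% to 29.2%, 27.3% to 28.4% and 19.4% to 21.6% in the same groups. These shares rest on the unshared 385 bases of Ugt1a1. Per kilobase of full exonic length, Ugt1a1 made up 24.3% to 25.4%, 26.6% to 27.8%, 32% to 33.1% and 34.2% to 41.0%, and Ugt1a5 44.1% to 45.7%, 38.0% to 39.6%, 39% to 40.9% and 30.0% to 32.6%, so that Ugt1a5 then led in every group but untreated wild type.

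The upstream sequences of these 2 genes are shown because their first exons lie in the same locus and yet the genes moved in different comparisons. Each is the 150 bases before the RefSeq start site (GRCm38.p6), 5′ to 3′, Ugt1a1 at chr1:88211809-88211958, plus strand and Ugt1a5 at chr1:88165862-88166011, plus strand. Capitals mark GCGTG, the core letters of the AHR element, searched on both strands. Aligned, the stretches were 50.7% identical.
Ugt1a1: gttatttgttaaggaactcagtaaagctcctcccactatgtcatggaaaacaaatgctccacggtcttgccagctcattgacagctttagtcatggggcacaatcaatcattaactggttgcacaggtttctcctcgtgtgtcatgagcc
Ugt1a5: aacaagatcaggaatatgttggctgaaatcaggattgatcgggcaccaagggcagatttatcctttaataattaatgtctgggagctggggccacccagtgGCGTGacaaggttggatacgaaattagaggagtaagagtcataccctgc
The match in Ugt1a5 begins 49 bases before the start. GCGTG occurs in 32.4% of all 32817 RefSeq mouse promoter stretches of 300 bases (250 before to 50 after the start).

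Among the other Ugt1a members, in untreated knock-in Ugt1a6a fell by 0.35 log2, Ugt1a6b fell by 0.26 and Ugt1a9 fell by 0.17, all 3 encoding enzymes that act on phenols. The call for Ugt1a9 was lost without untreated knock-in replicate 1, 2 or 3 or untreated wild-type replicate 1 or 3 (-0.09 to -0.19 log2) and with total-count scaling, DESeq2 and both other filters on low counts. With CP775146, Ugt1a9 changed by 0.03 ± 0.07 log2 in the knock-in, not called, and by 0.28 ± 0.07 in wild type (edgeR adjusted p = 0.00102), where its groups overlapped. Its responses were not called different between genotypes (-0.24 ± 0.09 log2). In treated cells Ugt1a9 stood at 23.1 ± 0.405 CPM in the knock-in and 30.9 ± 2.94 CPM in wild type (-0.42 ± 0.07 log2, edgeR adjusted p = 6.02e-06). Ugt1a6b and Ugt1a6a are 98.4% identical in coding sequence, and 79.8% of the 50-base words of Ugt1a6b occur in other transcripts, so their split is uncertain. With CP775146, Ugt1a6b was not called in the knock-in (-0.08 ± 0.05 log2) and fell by 0.34 in wild type (edgeR adjusted p = 8.96e-06). Ugt1a7c moved the other way at a low level. It had 1.97, 1.47 and 1.74 CPM in treated knock-in, 1.80, 1.89 and 1.93 CPM in untreated knock-in, 0.985, 1.05 and 0.818 CPM in treated wild type, and 0.805, 1.39 and 1.82 CPM in untreated wild type. Treated knock-in libraries lay above treated wild-type ones, and it was higher in the knock-in by 0.85 ± 0.23 log2 (edgeR adjusted p = 0.00283). Ugt1a2, at 0.361, 0.325, 0.297 and 0.404 CPM on average in treated knock-in, untreated knock-in, treated wild type and untreated wild type, had 127 counts over all libraries and no call.

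**Figure D3:**
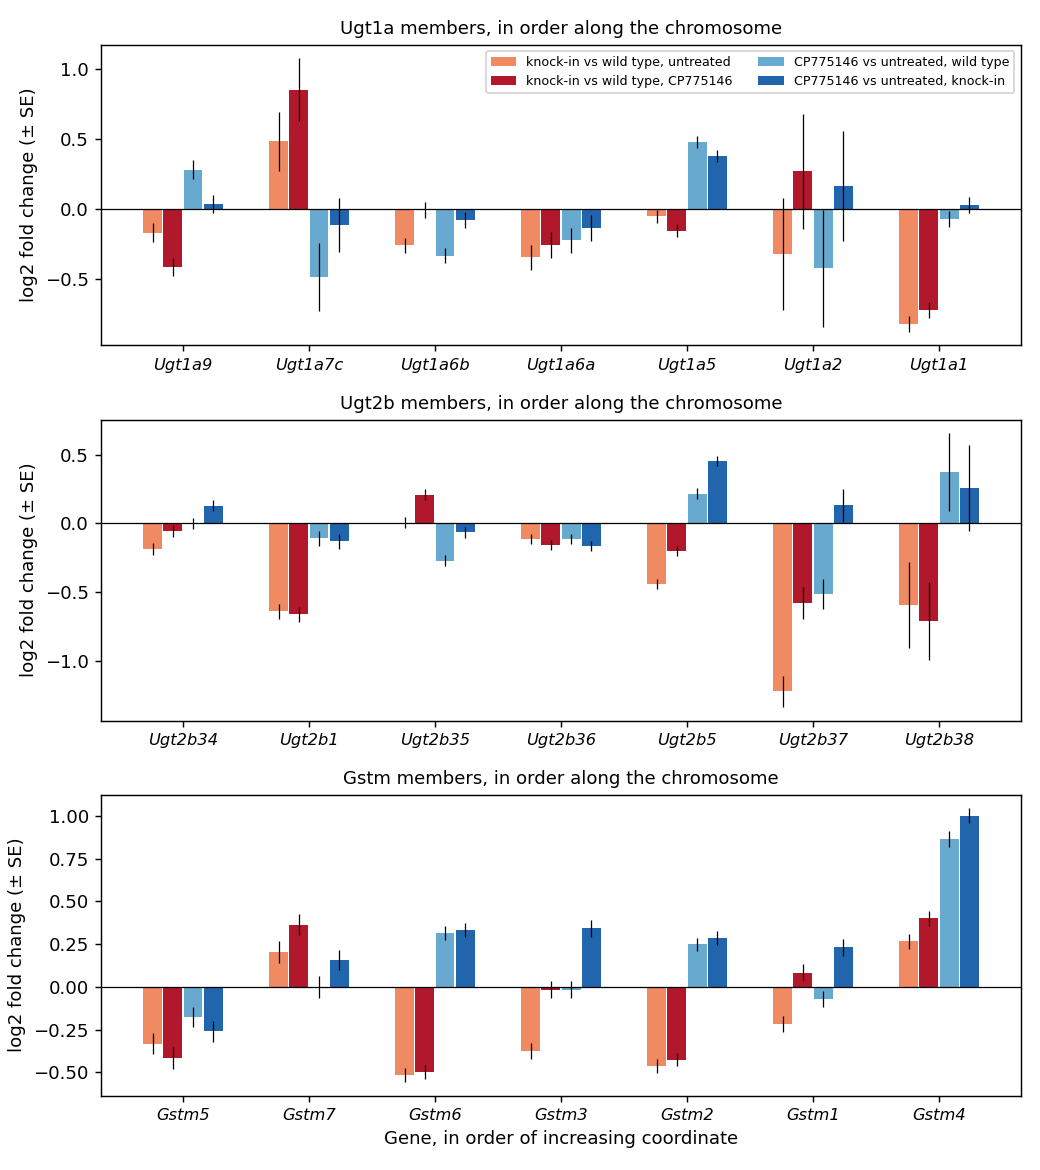
Log2 fold change ± SE of the Ugt1a, Ugt2b and mu-class members, each set in its order along the chromosome, with orange and red bars for the knock-in against wild type and light and dark blue bars for CP775146 against untreated. Ugt1a1 shows long downward genotype bars and short treatment bars, and Gstm4 the longest treatment bars, 1.002 in the knock-in and 0.87 in wild type.

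Ugt2b genes, whose enzymes act mainly on steroids, bile acids and drugs, lie beside Ugt2a3 on chromosome 5. In untreated knock-in 5 of 7 fell and none rose. In treated knock-in 5 fell and 1 rose against treated wild type. With total-count scaling 2 fell and 1 rose between treated genotypes, and 3 fell and 1 rose between untreated genotypes. Ugt2b34, the gene of this class with the most CPM, had 645, 641 and 655 CPM in treated knock-in, 582, 597 and 597 CPM in untreated knock-in, 637, 723 and 658 CPM in treated wild type, and 684, 639 and 699 CPM in untreated wild type. Untreated knock-in libraries lay below all others, at -0.19 ± 0.04 log2 against untreated wild type (edgeR adjusted p = 0.000605), a call lost with total-count scaling at -0.09. Its small rise with CP775146 in the knock-in (0.13 ± 0.04 log2) was lost without treated knock-in replicate 3 (0.12) or untreated knock-in replicate 1 (0.12) and with total-count scaling (0.07).

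Ugt2b5 showed the largest rises with CP775146 in the class that were called. It had 293, 288 and 288 CPM in treated knock-in, 209, 222 and 205 CPM in untreated knock-in, 325, 342 and 336 CPM in treated wild type, and 292, 281 and 289 CPM in untreated wild type. Only treated knock-in and untreated wild type overlapped. CP775146 raised it by 0.45 ± 0.04 log2 in the knock-in (edgeR adjusted p = 3.44e-11) and 0.22 ± 0.04 in wild type (1.92e-05), and in untreated knock-in it fell by 0.44 log2 (7.8e-11). Its share of the Ugt2b pool per kilobase was 26.3% to 26.8% in treated knock-in, 19.9% to 20.9% in untreated knock-in, 27.8% to 28.9% in treated wild type and 23.9% to 24.2% in untreated wild type. Between treated genotypes the difference (-0.20 log2) was lost with total-count scaling, at -0.07.

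Ugt2b37, its near copy, had the largest fall of all members in untreated knock-in. It had 3.87, 3.28 and 3.49 CPM in treated knock-in, 2.77, 3.21 and 3.69 CPM in untreated knock-in, 5.38, 5.21 and 5.28 CPM in treated wild type, and 7.29, 7.40 and 7.98 CPM in untreated wild type. The 2 knock-in groups overlapped and lay below both wild-type groups, and the knock-in level was 0.428 of that in wild type without treatment (-1.22 ± 0.11 log2, edgeR adjusted p = 3.5e-10). With CP775146 it fell by 0.51 log2 in wild type (0.000199), opposite to the direction of Ugt2b5. The third of these close copies, Ugt2b38, averaged 0.702, 0.580, 1.14 and 0.882 CPM in treated knock-in, untreated knock-in, treated wild type and untreated wild type. Its only call, between treated genotypes (-0.71 log2), was lost without treated knock-in replicate 1 or 3 or treated wild-type replicate 1, 2 or 3 (-0.39 to -0.76 log2).

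Upstream sequences of these 3 genes are shown because their coding sequences are 94.1% to 97% identical while their levels and changes differ. Each is the 150 bases before the RefSeq start (GRCm38.p6), 5′ to 3′, Ugt2b5 at chr5:87140341-87140490, minus strand, Ugt2b37 at chr5:87254789-87254938, minus strand and Ugt2b38 at chr5:87424204-87424353, minus strand. Capitals mark AGGTCA, the half-site letters of nuclear receptors, searched on both strands.
Ugt2b5: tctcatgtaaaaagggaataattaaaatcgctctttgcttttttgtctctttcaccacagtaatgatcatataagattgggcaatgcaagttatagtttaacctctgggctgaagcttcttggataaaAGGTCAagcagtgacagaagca
Ugt2b37: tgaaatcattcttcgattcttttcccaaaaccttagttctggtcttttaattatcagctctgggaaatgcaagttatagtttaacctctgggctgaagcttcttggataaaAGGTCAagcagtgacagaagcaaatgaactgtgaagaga
Ugt2b38: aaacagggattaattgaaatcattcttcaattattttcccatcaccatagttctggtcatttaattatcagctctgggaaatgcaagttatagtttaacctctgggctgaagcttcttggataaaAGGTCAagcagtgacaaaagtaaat
The stretches were 71.3% (Ugt2b5 and Ugt2b37), 80% (Ugt2b5 and Ugt2b38) and 85.3% (Ugt2b37 and Ugt2b38) identical, and each holds AGGTCA 22, 39 and 25 bases before the start in the order shown. AGGTCA occurs in 16.3% of all promoters and in 9 of the 43 promoters found for 35 members. The direct repeat of AGGTCA with any 1 base between the copies, searched on both strands, occurs in 0.0396% of all promoters and in none of the members. Of the 50-base words of Ugt2b5, 41.7% occur in other transcripts, mostly of Ugt2b38, against 37.4% for Ugt2b38 and 18.3% for Ugt2b37, so reads may be split or lost between them.

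Ugt2b1 averaged 24.9, 27.3, 39.4 and 42.5 CPM in treated knock-in, untreated knock-in, treated wild type and untreated wild type, and fell in the knock-in, at -0.64 ± 0.05 log2 without treatment (edgeR adjusted p = 6.06e-11) and -0.66 ± 0.05 with it (2.98e-11). CP775146 changed it by -0.13 ± 0.06 in the knock-in and -0.11 ± 0.05 in wild type, neither called. Ugt2b36, the gene of the class with the highest level per kilobase, was lower by 0.11 to 0.16 log2 in all 4 comparisons of 2 groups. The calls between untreated genotypes (-0.11) and for wild type (-0.11) were lost without untreated wild-type replicate 1 (-0.09 in both), and the first also without untreated knock-in replicate 1 or 3 (-0.10 each). Total-count scaling ended both genotype calls of Ugt2b36 (-0.02 treated and -0.01 untreated). Ugt2b35 fell with CP775146 in wild type (-0.27 ± 0.04 log2, edgeR adjusted p = 1.69e-06), to 272 ± 16.4 CPM against 328 ± 8.27 CPM untreated, and had no call in the knock-in, at 314 ± 2.27 CPM treated and 329 ± 8.29 CPM untreated.

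Ugt2a3, a neighbour in the cluster whose human counterpart conjugates bile acids, had 35.4, 40.5 and 37.8 CPM in treated knock-in, 47.6, 51.5 and 48.6 CPM in untreated knock-in, 51.3, 49.7 and 52.3 CPM in treated wild type, and 53.3, 51.5 and 59.8 CPM in untreated wild type. Treated knock-in libraries lay below all others. With CP775146 it fell by 0.38 log2 in the knock-in (SE 0.06, edgeR adjusted p = 2.46e-06), and the change in wild type was -0.10 ± 0.05 and not called. The small genotype difference without treatment (-0.16 log2) came from overlapping groups and was lost without untreated knock-in replicate 1 or 3 or untreated wild-type replicate 3 (-0.09 to -0.14 log2), and with total-count scaling (-0.06).

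The Ugt3a genes lie together on chromosome 15 and are 93.2% identical in coding sequence. In human their enzymes use sugar donors other than UDP-glucuronate. Ugt3a2 had 73.3, 74.8 and 74.3 CPM in treated knock-in, 69.0, 70.1 and 65.3 CPM in untreated knock-in, 90.7, 99.2 and 95.6 CPM in treated wild type, and 73.2, 76.2 and 67.9 CPM in untreated wild type. Treated wild type lay above the other groups, by 0.39 ± 0.05 log2 over untreated wild type (edgeR adjusted p = 2.82e-08). The rise in the knock-in was 0.12 ± 0.05 log2 (0.0351) and was lost without treated knock-in replicate 1, 2 or 3 or untreated knock-in replicate 1 or 3 (0.09 to 0.13 log2), and with total-count scaling (0.06). Ugt3a1 had 3.24, 3.22 and 3.29 CPM in treated knock-in, 3.25, 3.30 and 2.61 CPM in untreated knock-in, 5.78, 5.85 and 5.98 CPM in treated wild type, and 3.55, 3.83 and 3.72 CPM in untreated wild type. Its 3 treated wild-type libraries were likewise the highest, 1.58-fold over untreated wild type (0.66 ± 0.11 log2, edgeR adjusted p = 1.64e-05), and the knock-in showed no call (0.09 ± 0.12). In treated knock-in against treated wild type, Ugt3a1 fell by 0.85 log2 (edgeR adjusted p = 2.68e-07) and Ugt3a2 fell by 0.36 (1.22e-07).

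Of the 4 alpha-class GST genes, whose enzymes also reduce lipid hydroperoxides, 3 were higher in the knock-in in both conditions. Gsta1 had 117, 124 and 123 CPM in treated knock-in, 114, 121 and 112 CPM in untreated knock-in, 67.6, 61.7 and 65.0 CPM in treated wild type, and 55.9, 57.2 and 62.4 CPM in untreated wild type. All 6 knock-in libraries lay above all 6 wild-type libraries, 1.97-fold without treatment (0.98 ± 0.05 log2, edgeR adjusted p = 1.89e-16) and 1.87-fold with it (0.90 ± 0.05, 8.08e-16). Its slight rise with CP775146 in wild type (0.15 ± 0.05) came from overlapping groups and was lost without treated wild-type replicate 1 (0.10) or untreated wild-type replicate 1 (0.12), and with total-count scaling (0.05). Gsta2 had 29.0, 32.4 and 29.7 CPM in treated knock-in, 37.6, 37.3 and 38.1 CPM in untreated knock-in, 10.7, 11.2 and 10.1 CPM in treated wild type, and 17.6, 16.8 and 14.2 CPM in untreated wild type. No 2 groups overlapped. It was 2.33-fold higher in untreated knock-in (1.22 ± 0.06 log2, edgeR adjusted p = 2.13e-15) and 2.85-fold higher in treated knock-in (1.51 ± 0.07, 6.77e-17), the largest rise of a member between genotypes. With CP775146, Gsta2 fell by 0.31 log2 in the knock-in (8.82e-05) and fell by 0.60 in wild type (1.25e-07).

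Gsta4, which conjugates the lipid peroxidation product 4-hydroxynonenal, averaged 137, 156, 104 and 104 CPM in treated knock-in, untreated knock-in, treated wild type and untreated wild type. It rose in the knock-in by 0.58 ± 0.04 log2 without treatment (edgeR adjusted p = 6.14e-12) and fell there with CP775146 (-0.19 ± 0.04, 0.000963), with no call for CP775146 in wild type (-0.001 ± 0.04). Its responses were not called different between genotypes (-0.18 ± 0.06 log2). The most abundant alpha gene by CPM, Gsta3, whose mouse enzyme detoxifies aflatoxin epoxide, had 459, 479.8 and 475 CPM in treated knock-in, 466, 473 and 462 CPM in untreated knock-in, 470.1, 468 and 498 CPM in treated wild type, and 476, 469 and 511 CPM in untreated wild type. These groups overlapped and none of its 5 tests was called, with estimates between -0.06 and 0.03 log2 and standard errors of 0.04 to 0.05. Gsta3 lies on chromosome 1, apart from the other 3 on chromosome 9.

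The sequences before Gsta1 and Gsta2 are shown because the genes are near copies, 97.6% identical in coding sequence, that both rose in the knock-in, while of the pair only Gsta2 fell with CP775146. Each is the 150 bases before the RefSeq start (GRCm38.p6), 5′ to 3′, Gsta1 at chr9:78230519-78230668, plus strand and Gsta2 at chr9:78347146-78347295, minus strand, with GCGTG in capitals.
Gsta1: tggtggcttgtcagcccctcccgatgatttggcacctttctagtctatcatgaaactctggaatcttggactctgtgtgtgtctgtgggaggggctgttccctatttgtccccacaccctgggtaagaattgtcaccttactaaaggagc
Gsta2: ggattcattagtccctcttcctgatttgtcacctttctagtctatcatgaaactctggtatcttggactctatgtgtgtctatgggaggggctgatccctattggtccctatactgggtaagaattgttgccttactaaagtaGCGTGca
They were 83.3% identical. The RefSeq start of Gsta2 lies inside the gene span of the files' annotation. GCGTG begins 7 bases before the start of Gsta2, and a match in Gsta1 begins 2 bases before its start and runs past the stretch shown. Of the 50-base words of Gsta1, 90.5% occur in other transcripts, with 75.7% in Gm3776 alone, and 49.8% of those of Gsta2 do, so each value may hold or miss reads of its copies.

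The mu class sits in one cluster on chromosome 3 (107895821 to 108044894), and its members moved in both directions. Gstm1, the most abundant member of all, had 2252, 2227 and 2059 CPM in treated knock-in, 1779, 1799 and 1994 CPM in untreated knock-in, 1957, 2064 and 2149.9 CPM in treated wild type, and 2144, 2279.8 and 2057 CPM in untreated wild type. Untreated knock-in libraries lay below those of untreated wild type (-0.22 ± 0.05 log2, edgeR adjusted p = 0.000708) and below treated knock-in (0.23 ± 0.05 for CP775146, 0.000404), while treated and untreated wild type overlapped (-0.07 ± 0.05, not called). Gstm3 had 1122, 1102 and 1075 CPM in treated knock-in, 822, 873 and 905 CPM in untreated knock-in, 1053, 1145 and 1138 CPM in treated wild type, and 1078, 1235 and 1060.3 CPM in untreated wild type. Every untreated knock-in library lay below every other library. In untreated knock-in it fell by 0.38 log2 (edgeR adjusted p = 1.49e-06), CP775146 raised it in the knock-in by 0.34 ± 0.05 (5.44e-06), and between treated genotypes no difference was called (-0.02 ± 0.05). Gstm1 and Gstm3 together took 61.3% to 63.5% of GST CPM in treated knock-in, 58.6% to 61.0% in untreated knock-in, 60.9% to 62.5% in treated wild type and 62.2% to 66.0% in untreated wild type.

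Gstm4 had the most marked treatment response of the class. It had 130.3, 130.3 and 135 CPM in treated knock-in, 62.8, 66.1 and 68.8 CPM in untreated knock-in, 96.4, 98.9 and 104 CPM in treated wild type, and 52.1, 55.5 and 56.8 CPM in untreated wild type. CP775146 raised it 2.002-fold in the knock-in (1.002 ± 0.04 log2, edgeR adjusted p = 8.95e-18) and 1.82-fold in wild type (0.87 ± 0.05, 7.45e-16), with no overlap between any 2 groups. The knock-in was higher in both conditions, by 0.27 log2 untreated and 0.40 treated. No 50-base word of Gstm4 occurs in another transcript, against 18.9% for Gstm1 and 28.8% for Gstm3.

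Gstm2 and Gstm6 were lower with the knock-in and higher with CP775146. Gstm2 averaged 216, 177, 289.8 and 244 CPM in treated knock-in, untreated knock-in, treated wild type and untreated wild type, and Gstm6 65.9, 52.3, 93.0 and 74.7 CPM. In untreated knock-in Gstm2 fell by 0.46 log2 and Gstm6 fell by 0.51 (edgeR adjusted p = 1.25e-10 and 2.61e-11). Both rose with CP775146, Gstm2 by 0.29 in the knock-in and 0.25 in wild type, and Gstm6 by 0.33 in the knock-in and 0.32 in wild type. Gstm5 fell in all 4 comparisons of 2 groups (-0.18 to -0.42 log2), and its call for CP775146 in wild type was lost without untreated wild-type replicate 1 (-0.15). Gstm7 rose in the knock-in by 0.20 log2 untreated and 0.36 treated. Its rise with CP775146 in the knock-in (0.16) was lost without treated knock-in replicate 1 or 2 or untreated knock-in replicate 1, 2 or 3 (0.12 to 0.17), and with total-count scaling (0.10).

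The 3 pi-class genes stand side by side on chromosome 19 (4035407 to 4059446) and differed in their changes. Gstp1, the main one, had 246, 239.5 and 249 CPM in treated knock-in, 245, 242 and 272 CPM in untreated knock-in, 246, 259 and 284 CPM in treated wild type, and 239, 231 and 285 CPM in untreated wild type. Its groups overlapped and none of its tests was called, with standard errors of 0.08 log2 for each comparison of 2 groups. Gstp2 had 54.8, 57.6 and 56.7 CPM in treated knock-in, 45.7, 46.6 and 42.4 CPM in untreated knock-in, 62.2, 69.5 and 68.0 CPM in treated wild type, and 41.3, 49.5 and 41.8 CPM in untreated wild type. CP775146 raised it in both genotypes, by 0.33 ± 0.06 log2 in the knock-in (edgeR adjusted p = 4.69e-05) and 0.59 ± 0.06 in wild type (4.08e-09). Its responses were not called different between genotypes (-0.26 ± 0.08 log2). Between untreated genotypes it overlapped (0.02 ± 0.06), and its lower level in treated knock-in (-0.24 log2) was lost with total-count scaling, at -0.10. Gstp3 had 41.3, 42.9 and 40.6 CPM in treated knock-in, 62.1, 65.0 and 66.3 CPM in untreated knock-in, 104, 96.7 and 111 CPM in treated wild type, and 115, 119 and 113 CPM in untreated wild type. The knock-in groups lay below the wild-type groups and treated knock-in below untreated. It fell to 0.400 of the wild-type level in treated knock-in (-1.32 ± 0.05 log2, edgeR adjusted p = 2.54e-19), the largest fall of a member between treated genotypes, and fell by 0.84 log2 in untreated knock-in (3.88e-15). With CP775146 it fell by 0.63 log2 in the knock-in (6.3e-12) and fell by 0.16 in wild type (0.00539).

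The stretches before the 3 pi genes are shown because Gstp1 and Gstp2 are 98.1% identical in coding sequence, while Gstp3 is 73.7% and 73.8% identical to them and was the one that fell in all 4 comparisons of 2 groups. Each is the 150 bases before the RefSeq start (GRCm38.p6), 5′ to 3′, Gstp1 at chr19:4037913-4038062, minus strand, Gstp2 at chr19:4042222-4042371, minus strand and Gstp3 at chr19:4059448-4059597, minus strand. Capitals mark TGAGTCA, the letters of an AP-1 site, and GCGTG, searched on both strands.
Gstp1: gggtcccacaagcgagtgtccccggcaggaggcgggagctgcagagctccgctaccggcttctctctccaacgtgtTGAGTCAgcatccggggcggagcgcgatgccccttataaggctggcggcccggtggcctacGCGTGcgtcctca
Gstp2: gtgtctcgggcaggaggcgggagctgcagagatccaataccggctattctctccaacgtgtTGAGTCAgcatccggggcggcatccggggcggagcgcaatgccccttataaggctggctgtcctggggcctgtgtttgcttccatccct
Gstp3: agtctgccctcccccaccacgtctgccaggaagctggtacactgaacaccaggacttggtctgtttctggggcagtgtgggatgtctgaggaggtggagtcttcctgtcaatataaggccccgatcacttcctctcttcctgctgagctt
Gstp1 and Gstp2 were 78% identical over these bases, and Gstp3 was 54% identical to Gstp1 and 48.7% to Gstp2. TGAGTCA begins 74 bases before the start of Gstp1 and 89 before that of Gstp2, and these letters are not in the stretch of Gstp3. It occurs in 5.2% of all promoters and in 4 of 43 member promoters, also those of Gstm5 and Ugt2b37. No 50-base word of Gstp3 occurs in another transcript, but 33.7% of those of Gstp1 and 54.3% of those of Gstp2 do, so the split between these copies is uncertain.

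Theta-class genes, whose enzymes act on halogenated small molecules and sulfate esters, were higher in the knock-in in all 3 cases under both conditions. Gstt1, the most abundant, had 84.8, 86.8 and 87.5 CPM in treated knock-in, 91.9, 89.2 and 87.7 CPM in untreated knock-in, 80.1, 68.6 and 77.3 CPM in treated wild type, and 74.7, 77.0 and 74.8 CPM in untreated wild type. Knock-in libraries lay above wild-type ones, by 0.25 ± 0.05 log2 untreated (edgeR adjusted p = 7.37e-05) and 0.20 ± 0.05 treated (0.000825), and CP775146 gave no call. Gstt2 had 34.8, 31.4 and 34.3 CPM in treated knock-in, 15.7, 16.0 and 16.1 CPM in untreated knock-in, 26.0, 22.6 and 24.9 CPM in treated wild type, and 9.85, 9.95 and 12.9 CPM in untreated wild type. It had the largest rise of a member with CP775146, 2.11-fold in the knock-in (1.07 ± 0.07 log2, edgeR adjusted p = 1.26e-12) and 2.25-fold in wild type (1.17 ± 0.08, 2.27e-12), with no overlap between any 2 groups. Gstt3 had 15.0, 14.3 and 13.9 CPM in treated knock-in, 13.1, 12.8 and 12.9 CPM in untreated knock-in, 5.71, 5.24 and 5.72 CPM in treated wild type, and 7.36, 7.74 and 8.20 CPM in untreated wild type. Knock-in libraries lay above wild-type ones, 2.59-fold with treatment (1.37 ± 0.08 log2, edgeR adjusted p = 1.13e-14) and 1.67-fold without (0.74 ± 0.08, 3.92e-09), and CP775146 gave 0.15 ± 0.07 in the knock-in, not called, and -0.48 ± 0.09 in wild type (4.13e-05). Of its exonic length, 19.9% is shared with Gm20441 and was not counted.

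Among the single-gene classes, Gstz1, which as maleylacetoacetate isomerase takes part in tyrosine breakdown, had 95.7, 95.3 and 93.1 CPM in treated knock-in, 88.7, 90.4 and 89.3 CPM in untreated knock-in, 72.9, 69.1 and 69.1 CPM in treated wild type, and 78.0, 73.6 and 80.1 CPM in untreated wild type. Knock-in libraries lay above wild-type ones, by 0.43 ± 0.04 log2 treated (edgeR adjusted p = 7.05e-10) and 0.21 ± 0.04 untreated (0.00012). Its fall with CP775146 in wild type (-0.13 log2) was lost without untreated wild-type replicate 3 (-0.11). Gstk1, the kappa form of mitochondria and peroxisomes, had 28.1, 27.6 and 29.7 CPM in treated knock-in, 25.2, 25.5 and 24.8 CPM in untreated knock-in, 23.1, 19.9 and 24.5 CPM in treated wild type, and 17.8, 21.2 and 20.3 CPM in untreated wild type. All 6 knock-in libraries lay above all 6 wild-type libraries, and treated and untreated wild type overlapped. It was higher in the knock-in by 0.35 ± 0.07 log2 untreated (0.000135) and 0.34 ± 0.07 treated (9.63e-05). Its rises with CP775146 were small and unstable, 0.18 in the knock-in (lost without any 1 of the 6 knock-in libraries except treated replicate 2, 0.15 to 0.19) and 0.19 in wild type (lost without treated replicate 1 or 3 or untreated replicate 1, 0.12 to 0.16). Total-count scaling also ended both (0.12 in the knock-in and 0.09 in wild type). Gsto1, the omega form, which reduces dehydroascorbate, had 152, 159.7 and 159.6 CPM in treated knock-in, 149, 154 and 146 CPM in untreated knock-in, 156, 155 and 158 CPM in treated wild type, and 149, 147 and 152 CPM in untreated wild type. Treated and untreated wild type did not overlap, by a narrow margin, and the other pairs of one genotype or treatment did. It had no call in any test, and its 4 estimates between 2 groups ran from 0.00 to 0.07 log2 with a standard error of 0.04.

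Both Mgst genes, whose membrane enzymes also act as glutathione peroxidases, rose with CP775146 in each genotype. Mgst1 had 1014, 1020.2 and 1037 CPM in treated knock-in, 804, 822 and 803 CPM in untreated knock-in, 963, 1001 and 1006 CPM in treated wild type, and 741, 725 and 759 CPM in untreated wild type. Treated libraries lay above untreated ones, by 0.34 ± 0.03 log2 in the knock-in (edgeR adjusted p = 3.11e-09) and 0.42 ± 0.03 in wild type (3.08e-11), and the knock-in was higher by 0.13 ± 0.03 without treatment (0.0044). Mgst3 had 52.1, 50.6 and 54.0 CPM in treated knock-in, 37.7, 37.6 and 35.6 CPM in untreated knock-in, 30.8, 28.0 and 29.5 CPM in treated wild type, and 17.3, 19.2 and 18.9 CPM in untreated wild type. No 2 groups overlapped. The knock-in was 2.001-fold higher untreated (1.0 ± 0.06 log2, edgeR adjusted p = 6.7e-15) and 1.78-fold higher treated (0.83 ± 0.05, 5.04e-14), and CP775146 raised it by 0.50 ± 0.05 in the knock-in (1.36e-09) and 0.67 ± 0.06 in wild type (5.87e-11).

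**Figure D4:**
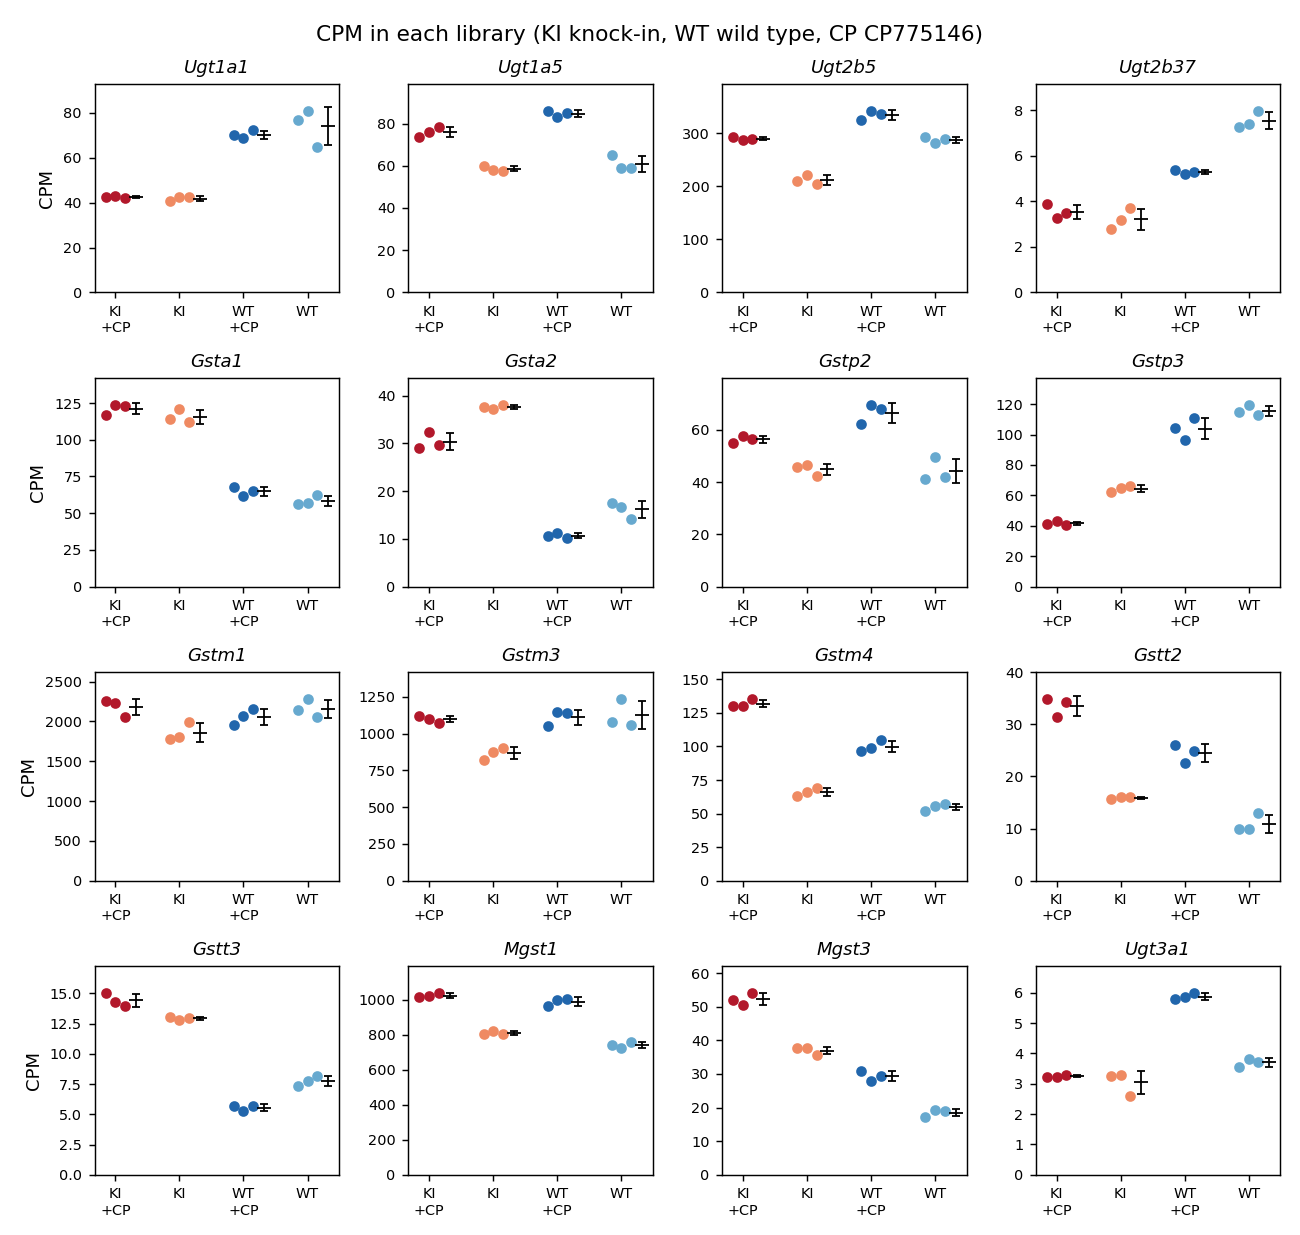
CPM in each library (points) with mean ± SD (bars, n = 3) for 16 members, each panel with its own linear axis from 0 and the groups treated knock-in, untreated knock-in, treated wild type and untreated wild type from left to right. Gsta1, Gsta2, Gstt3 and Mgst3 show knock-in points above wild-type points, Ugt1a1, Ugt2b37 and Gstp3 the reverse, and Gstm4 and Gstt2 step up with CP775146 in both genotypes.

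The response to CP775146 differed between genotypes for 12 members, more positive in the knock-in for 8 and more negative for 4. For Gstt3 the difference, knock-in response minus wild-type response, was 0.64 ± 0.11 log2 (edgeR adjusted p = 0.000318), for Gstm3 0.36 ± 0.07 (0.0018), for Gstm1 0.30 ± 0.07 (0.00583) and for Ugt2b5 0.24 ± 0.05 (0.00425). On the negative side stood Gstp3 (-0.48 ± 0.07, 1.21e-05) and Ugt3a2 (-0.27 ± 0.06, 0.0077). These 6 differences kept their call whichever library was left out. The other 6, Ugt2b37 (0.65 ± 0.16), Ugt1a6b (0.25 ± 0.08), Gstz1 (0.22 ± 0.06), Ugt2b35 (0.20 ± 0.06), Ugt3a1 (-0.57 ± 0.17) and Ugt2a3 (-0.27 ± 0.08), each lost it for at least 1 left-out library. The count of positive differences was 4 without treated or untreated knock-in replicate 1. The count of negative ones was 2 without treated knock-in replicate 1 or 3, untreated knock-in replicate 2, treated wild-type replicate 3 or untreated wild-type replicate 1. For the strongest responders, Gstt2 and Gstm4, no difference between genotypes was called (-0.09 ± 0.11 and 0.14 ± 0.06 log2).

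**Figure D5:**
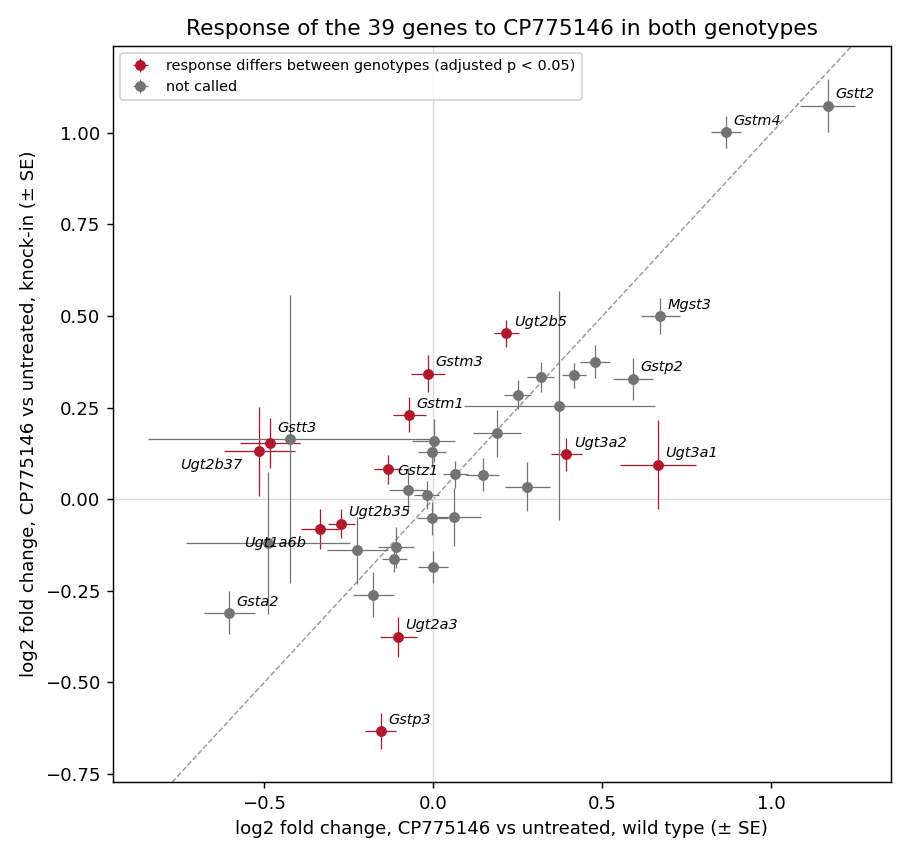
Log2 fold change ± SE with CP775146 in the knock-in (vertical axis) against that in wild type (horizontal axis) for the 39 members, with red points for the 12 whose responses differed and a dashed line of equal response. Gstt2 and Gstm4 lie at the upper right near the line, Gstm1, Gstm3, Ugt2b5 and Gstt3 above it and Gstp3, Ugt3a1 and Ugt3a2 below it.

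RefSeq promoters were found for 35 members (43 promoters, since some genes have several starts). TGACNNNGC, the core letters of the antioxidant response element that NRF2 binds, was searched on both strands. It occurred in 4 of the 43 promoters (Gsta3, Gstm5, Gstm7 and Mgst1), against 12.4% of all promoters. GCGTG occurred in 9 of the 43 promoters, of 8 members (32.4% of all promoters). TATAAA, the letters of a TATA box, occurred in 5 of the 43 (13.6% of all promoters). These matches began 246 (Gsta2), 231 (Gstm7), 30 (Gstm1) and 8 (Ugt3a1) bases before the start and at base 41 after it (Gstm5). In Gstm5 the matches of TGACNNNGC and GCGTG overlap, and so do those of TGAGTCA and GCGTG. A match is a description of the letters.

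The counts of called genes in this and the following lists stand beside these shares of all tested genes. Between untreated genotypes 18.4% rose and 18.6% fell, and between treated genotypes 20.5% rose and 22.0% fell. With CP775146, 18.1% rose and 19.1% fell in the knock-in, and 22.7% rose and 22.3% fell in wild type. Of 7 genes that supply UDP-glucuronate, 4 rose and 1 fell in untreated knock-in (median 0.13 log2, against -0.004 over all genes), 4 rose and 2 fell in treated knock-in against treated wild type, and 1 rose and 2 fell with CP775146 in each genotype. Ugp2, which makes UDP-glucose, had 1427 ± 116 CPM in treated knock-in, 1972 ± 74.2 in untreated knock-in, 2716 ± 229 in treated wild type and 2817 ± 105 in untreated wild type (SD, n = 3), and in the knock-in fell by 0.51 log2 untreated and fell by 0.93 treated (edgeR adjusted p = 8.03e-06 and 7.35e-09). Ugdh, which oxidizes UDP-glucose to UDP-glucuronate, rose by 0.13 and 0.23 log2 in the same comparisons.

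Of 24 genes of glutathione synthesis and turnover, 14 rose and 2 fell in untreated knock-in (median 0.14 log2), 10 rose and 7 fell in treated knock-in against treated wild type, and CP775146 raised 12 in each genotype and lowered 3 in the knock-in and 4 in wild type. Slc7a11, the cystine importer, averaged 57.6, 42.9, 18.0 and 23.0 CPM in treated knock-in, untreated knock-in, treated wild type and untreated wild type and was higher in the knock-in by 0.90 ± 0.08 log2 untreated (edgeR adjusted p = 6.63e-08) and 1.68 ± 0.08 treated (8.74e-12). Gsr, the glutathione reductase, rose in all 4 comparisons of 2 groups (0.22 to 0.46 log2). Oplah, which recycles 5-oxoproline, rose with CP775146 by 1.41 ± 0.04 log2 in the knock-in and 1.70 ± 0.04 in wild type. Gclc, the catalytic subunit of the rate-limiting step, fell in all 4, to 3821 ± 134 CPM in treated knock-in against 5205 ± 87.9 CPM in untreated wild type at the extremes.

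Of 16 transporters that carry conjugates or their precursors, 8 rose and 5 fell in untreated knock-in (median 0.13 log2), 8 rose and 5 fell between treated genotypes, and CP775146 raised 8 and lowered 6 in the knock-in and raised 7 and lowered 5 in wild type. Abcc4, an efflux pump, was higher in the knock-in by 1.21 ± 0.06 log2 untreated (edgeR adjusted p = 3e-15), and Abcb1b, the P-glycoprotein form, by 2.06 ± 0.11 (1.34e-15). Slco1a1, an uptake carrier, fell in the knock-in (-2.13 ± 0.14 log2, 3.54e-13). With CP775146 the uptake carrier Slco1a4 fell by 1.14 log2 in the knock-in and fell by 1.54 in wild type.

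Of 16 tested genes that encode the sensors and their partners, 4 rose and 7 fell in untreated knock-in (median -0.06 log2), 5 rose and 8 fell in treated knock-in against treated wild type, and CP775146 raised 6 and lowered 4 in the knock-in and raised 5 and lowered 8 in wild type. Nfe2l2, which encodes NRF2, had 407, 414 and 404 CPM in treated knock-in, 323, 332 and 333 CPM in untreated knock-in, 326, 349 and 354 CPM in treated wild type, and 235, 219 and 226 CPM in untreated wild type, with no overlap between genotypes within a treatment, and rose by 0.54 ± 0.04 log2 in untreated knock-in (edgeR adjusted p = 1.6e-12) and with CP775146 by 0.31 ± 0.04 in the knock-in and 0.60 ± 0.04 in wild type. Keap1, its inhibitor, fell in untreated knock-in (-0.22 ± 0.05) and rose with CP775146 (0.15 in the knock-in and 0.24 in wild type). Nr1i3, which encodes CAR, averaged 10.3, 3.47, 8.73 and 2.63 CPM in that order of groups and rose with CP775146 by 1.58 ± 0.10 log2 in the knock-in and 1.72 ± 0.11 in wild type. Nr1i2, which encodes PXR, rose by 0.45 ± 0.04 in the knock-in and 0.60 ± 0.04 in wild type, and Ahr fell by 0.91 in the knock-in and fell by 0.92 in wild type. Ppara averaged 93.8, 73.2, 127 and 87.5 CPM in that order and in untreated knock-in fell by 0.26 log2 (SE 0.05, edgeR adjusted p = 3.84e-05).

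Lists of known targets of these sensors, other than the members, showed the following counts. Of 15 NRF2 targets, 7 rose and 3 fell in untreated knock-in, and 7 rose and 6 fell between treated genotypes (medians 0.03 log2 in both). CP775146 raised 11 and lowered 2 in the knock-in and raised 10 and lowered 3 in wild type (medians 0.32 and 0.37 log2). Nqo1, a quinone reductase, averaged 31.6, 22.6, 22.3 and 15.8 CPM in treated knock-in, untreated knock-in, treated wild type and untreated wild type. Hmox1 went the other way between genotypes, at 663, 548, 1152 and 931 CPM in the same order. Of 15 tested CAR and PXR targets, 6 rose and 6 fell in untreated knock-in, and 7 rose and 4 fell between treated genotypes. CP775146 raised 10 and lowered 2 in the knock-in and raised 8 and lowered 3 in wild type (medians 0.18 and 0.19 log2). With CP775146, Cyp2b10, a standard CAR target, fell by 0.97 log2 in the knock-in and fell by 0.90 in wild type. Of 4 tested AHR targets, 3 rose and 1 fell in each genotype comparison, and CP775146 raised 1 in each genotype and lowered 3 in the knock-in and 2 in wild type. Cyp1a1, the classical AHR target, rose in untreated knock-in by 1.32 ± 0.07 log2 and with CP775146 fell by 1.45 in the knock-in and fell by 2.02 in wild type. All 12 PPAR-alpha targets rose with CP775146 in both genotypes, with medians of 3.67 log2 in the knock-in and 3.78 in wild type, against 0.09 and -0.003 over the 39 members. Their responses still differed, more negative in the knock-in for 7 and more positive for 4 (median difference -0.47 log2), against 4.33% and 2.78% of all tested genes. In untreated knock-in 7 of the 12 rose and 4 fell (median 0.44 log2), and between treated genotypes 5 rose and 3 fell (median 0.06).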

How the data were processed

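RNA-seq libraries of 12 hepatocyte samples were deposited as raw counts per gene, 1 table a library. Per the file headers, the authors counted reads over exons with featureCounts 1.6.2 on Ensembl release 83 (mm10), with no strand, multi-mapping or overlap option, so reads on more than 1 gene were not counted. The submitters' processing notes name FastQC 0.11.2, cutadapt 1.9, Subread, featureCounts 1.4.6-p4 and edgeR 3.18.1. Symbols were added from GENCODE M21 by gene ID, and 46488 of 46983 IDs matched.

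After filterByExpr (at least 10 counts in enough libraries and 15 in total) and TMM scaling, all 12 libraries were fitted with 1 term a group in edgeR 4.0.16 (R 4.3.3, limma 3.58.1). The 5 contrasts were tested with the robust quasi-likelihood test: both genotype comparisons, both CP775146 comparisons and their difference. The script was tested on simulated data in which far fewer genes were changed than were called here, so that run does not bear on the choice of scaling. Depth (above) limits the precision of members below 2 CPM. Replicates of a group differed by more than counting noise (chi-square per degree of freedom 1.7 to 6.79). Each was counted as 1 sample, though this spread cannot show if they were separate animals or cultures.

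Values in every library are given for the member with the most CPM in each class and, in each contrast, for called members among the 6 with the largest changes and a mean of at least 1 CPM. Of other genes, up to 3 called ones a list with the smallest adjusted p, and the main sensors and Mtdh, were eligible. Cyp2b10, Cyp1a1, Nqo1, Hmox1, Ugdh, Slco1a4 and the 6 members whose difference survived each left-out library were picked out after their values were seen. The members and lists were chosen with earlier results of these data known. The motifs TGAGTCA and AGGTCA were added after the promoters had been seen.

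Promoter sequences were the RefSeq starts of GRCm38.p6. Exon sharing, the share of each gene's 50-base words found in transcripts of other genes, and coding identity came from the annotation. Alternatives replaced 1 choice each, except that DESeq2 also brought its own size factors: the scaling (RLE or total counts), the filter (none, or 5 CPM in at least 3 libraries), the tool (DESeq2 1.42.0, or limma's voom with weights per sample), the design (a replicate block, or only the 2 groups compared) and the libraries (each left out).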

Additional observations from a re-analysis of the deposited data

Results flagged for a closer look

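The response to CP775146 differed between genotypes, by the interaction term of the edgeR quasi-likelihood fit, for 12 members, each given here as the knock-in response minus the wild-type response on the log2 scale. More positive in the knock-in were Ugt2b37 (0.645), Gstt3 (0.636), Gstm3 (0.359), Gstm1 (0.301), Ugt1a6b (0.254), Ugt2b5 (0.237), Gstz1 (0.216) and Ugt2b35 (0.205). More negative were Ugt3a1 (-0.570), Gstp3 (-0.477), Ugt2a3 (-0.272) and Ugt3a2 (-0.271). For Gstm1 and Gstm3 a rise was called in the knock-in and no change in wild type. For Gstt3, Gstz1, Ugt1a6b, Ugt2b35 and Ugt2b37 no change was called in the knock-in and a fall in wild type. Gstp3 fell and Ugt2b5 rose in both genotypes, each by more in the knock-in, and Ugt3a2 rose in both, by more in wild type. Ugt3a1 had no call in the knock-in and rose in wild type, and Ugt2a3 fell in the knock-in with no call in wild type. As given above, Ugt2b37, Ugt1a6b, Gstz1, Ugt2b35, Ugt3a1 and Ugt2a3 each lost the difference call for at least 1 left-out library. Ugt1a6b also lost it with DESeq2 and without a filter on low counts, Ugt3a1 with DESeq2 and Ugt2a3 with total-count scaling. The rise of Ugt3a2 in the knock-in was unstable too, as given above.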

How the results depend on the processing

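Of 115 calls over members and 5 contrasts, 89 held under every alternative that tested the gene and 26 were lost under at least 1. No value of a called member changed sign. The filter of 5 CPM in at least 3 libraries left Ugt1a7c untested, and its call between treated genotypes is among the 89. Total-count scaling ended 17 calls, DESeq2 8, the lack of a filter 7, the compared groups alone 4, limma voom 1 and RLE scaling none, and leaving out 1 library at a time ended 21. With total-count scaling the members called lower numbered 10 instead of 6 for CP775146 in the knock-in, 18 instead of 10 for CP775146 in wild type and 11 instead of 17 between treated genotypes. The share of all tested genes called with this scaling was not computed, and the cause was not tested. With 1 library left out, members with a more positive response in the knock-in numbered 4 to 10 and with a more negative one 2 to 6. The genotype counts ran from 12 to 13 up and 13 to 16 down untreated, and were 13 up and 15 to 16 down treated. Those for CP775146 ran from 11 to 13 up and 6 to 7 down in the knock-in, and 12 to 15 up and 8 to 11 down in wild type. Where 1 library of a group was left out, fewer samples entered the fit.

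Same-numbered libraries of different groups did not deviate together (correlations of -0.026 to 0.063), so the numbers were not taken to pair them. With the replicate number as a block, the counts were 12 up and 16 down between untreated genotypes, 13 up and 17 down between treated genotypes, 15 up and 6 down for CP775146 in the knock-in, 14 up and 9 down in wild type, and 8 more positive and 5 more negative responses. The block ended the call of Ugt1a6a for CP775146 in wild type (-0.22 log2). Not every library correlated best with its own number. Depth limits Ugt1a2, Ugt2b38 and Ugt1a7c, each below 2 CPM on average, and read sharing limits Gsta1, Gsta2, Gstp1, Gstp2 and the close Ugt copies.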
